A study of Mus musculus with 8 samples.

Results

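Antioxidant and glutathione genes were followed in mouse sperm small RNA libraries. The 41 genes were chosen by symbol: the glutathione peroxidases, peroxiredoxins and superoxide dismutases, the thioredoxin system, the enzymes that make and recycle glutathione, 8 glutathione transferases, the NRF2 pathway and the ferritins. These genes, and the gene lists set beside them, were chosen with earlier results of these data known. Of the 41, 40 had exon rows in the count table, and their 265 rows were summed per gene, among 19223 genes with mRNA exon rows and 45097 features of all RNA classes. Gpx2 was not analysed here. The libraries came from 4 sperm samples of ethanol-treated mice and 4 control sperm samples, and the series design describes sperm taken after cessation of alcohol. Total RNA was extracted with Trizol and made into small RNA libraries with Qiaseq reagents, per the labels' protocols. The strain, age, dose, route and number of mice per sample are not given in the sources used here. The labels do not say whether a group's samples are separate animals, so p-values measure the spread among these libraries, which may be technical.

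Library totals ran from 3481865 to 6975180 counts in the ethanol group and from 4365887 to 4921827 counts in the control group, and 1 library stood apart. In ethanol replicate 2, mRNA exons took 30.4% of the counts assigned to features. The other ethanol libraries had 9.42%, 7.77% and 10.2%, and the controls 5.47% to 6.08%. CPM stands for TMM-scaled counts per 1000000 counts on the 13515 features with enough counts to test. The log2 CPM of ethanol replicate 2 correlated with the other ethanol libraries at r = 0.699 to 0.828 across features, against 0.906 to 0.934 among those other libraries and 0.917 to 0.947 among controls. The number of called members and the called counts of the gene lists are therefore given with and without ethanol replicate 2, as are most medians. These are bulk samples and hold fragments of longer RNAs beside small RNAs, so fewer cells of a type and less RNA per cell cannot be told apart.

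Cells keep peroxides and superoxide low with enzymes that pass electrons from NADPH to oxidised targets. Superoxide dismutases turn superoxide into hydrogen peroxide, which glutathione peroxidases reduce with glutathione and peroxiredoxins reduce with thioredoxin. Glutathione reductase and thioredoxin reductases restore both carriers. The transcription factor NRF2, held back by KEAP1, binds antioxidant response elements in the promoters of many of these genes. Mature sperm are nearly silent in transcription, and the epididymal epithelium that they pass secretes several of these enzymes.

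Exon fragments of 20 of the 27 members with enough counts to test were higher in ethanol sperm and none were lower. All 5 tested peroxiredoxins, both tested superoxide dismutases, all 3 tested genes of glutathione synthesis and recycling, 4 of 5 thioredoxin system genes and 3 of 4 glutathione transferases rose, beside 1 of 4 glutathione peroxidases, 1 of 2 NRF2 pathway genes and 1 of 2 ferritins. The 20 differences ran from 1.71 (Ftl1) to 3.72 (Gpx3) on the log2 scale of ethanol over control, with adjusted p from 0.0287 to 0.0333 by edgeR's quasi-likelihood test, adjusted over all 13515 features tested. The same test called 11.9% of all features higher and 1.75% lower, and 23.8% of the 6545 mRNA exon features higher and 0.153% lower. At an unadjusted p under 0.05 by edgeR, 23 members were higher and 0 lower, beside 3180 higher and 86 lower of the 6545 mRNA exon features. DESeq2 called 21 of 26 members higher and 0 lower. It called 35.2% of mRNA exon features and 17.3% of all features higher, and 0.715% and 6.18% lower. The median log2 fold change was 1.93 over the 27 members, 0.88 over all tested mRNA exon features and -0.01 over all tested features. All 27 tested members passed the count minimum in all 4 ethanol libraries, but 13 of them fell short of it in at least 1 control library, and 10 of the 20 called members were over it in all 4 controls. A member that passed through its ethanol libraries alone had to be higher there, so these counts and medians describe the tested members and not the list of 41.

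Each called member was highest in ethanol replicate 2, and 15 of the 20 had their lowest ethanol value in replicate 3. Without ethanol replicate 2, 18 of 27 were called, at a background of 13.9% of mRNA exon features and 6.88% of all features. Srxn1 (adjusted p = 0.0618) and Gclc (adjusted p = 0.0509) were the 2 lost. The median of the members was then 1.39, against 0.50 over mRNA exon features. No call held with any 1 control left out, for a reason that was not tested: edgeR then called 0 of 28 tested members. It called 3 to 10 features in all, with at most 0.0136% of mRNA exon features called higher (without control replicate 4). At an unadjusted p under 0.05 by edgeR, 22 to 24 members were higher and 0 lower. Of the 7360 to 7560 mRNA exon features tested, 2489 to 3072 were higher and 78 to 105 lower at that threshold. The adjusted p of the 20 members then ran from 0.0615 to 0.138.

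**Figure D1:**
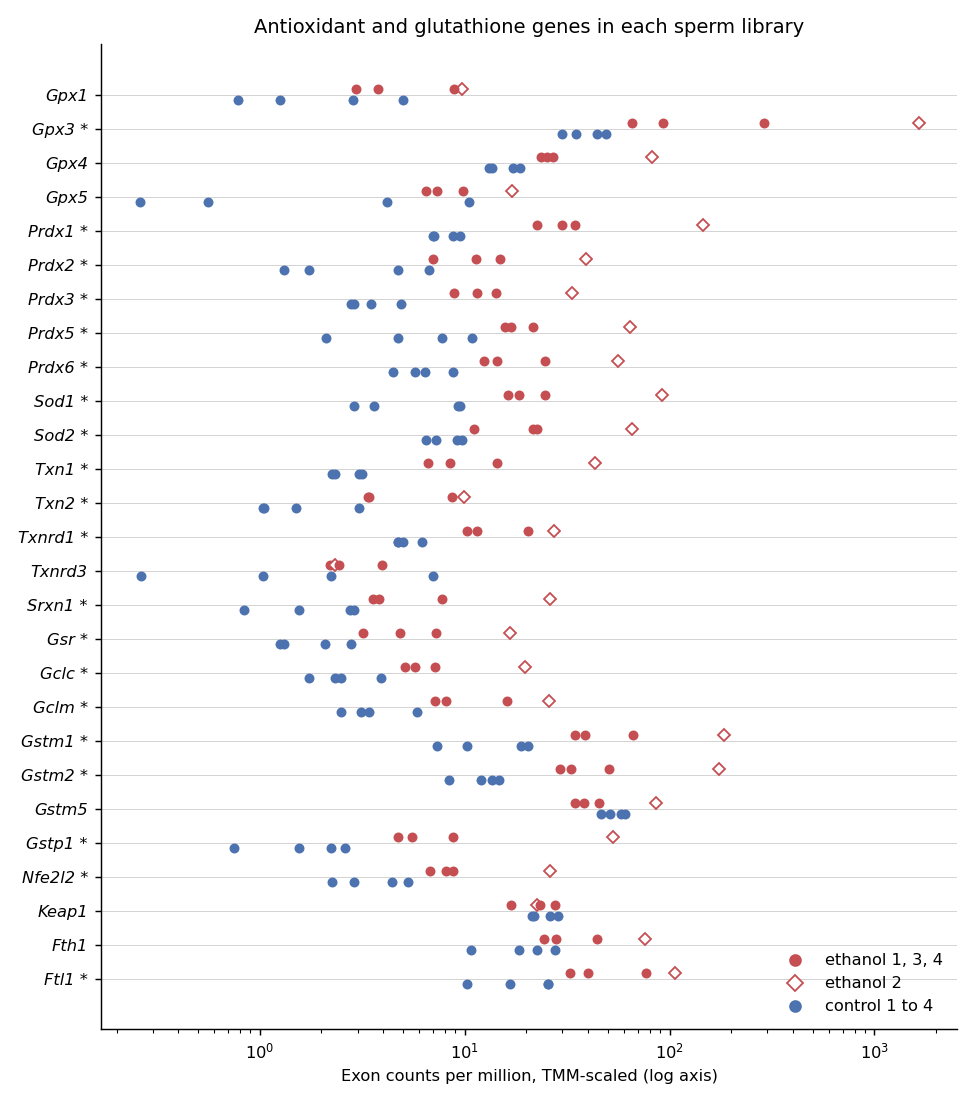
TMM-scaled exon CPM (log axis) of the 27 tested members in each library, ethanol above control for each gene, with an asterisk for the 20 called higher; the open diamond is ethanol replicate 2. In 21 genes all 4 ethanol libraries lie above all 4 control libraries, while Gpx1, Gpx5, Txnrd3, Gstm5, Keap1 and Fth1 overlap between groups.

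In 21 tested members, the 20 called and Gpx4, every ethanol library lay above every control library; this held for 14.4% of all tested features and 28.7% of tested mRNA exon features. No tested member showed the reverse order.

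Set against other genes alone, the members' log2 fold changes were smaller. When mRNA exon features alone were fitted, so that the general increase of mRNA fragments was taken up by the scaling, the members' median log2 fold change was 1.07, against 0.02 over all 6965 genes tested. Under this fit edgeR called 0 genes, members included, and the adjusted p of the 20 members ran from 0.0780 to 0.169. At an unadjusted p under 0.05 by edgeR, 21 members were higher and 2 lower, beside 1053 higher and 943 lower of the 6965 genes. With ethanol replicate 2 also left out, 6 of 26 members were called, Prdx1, Prdx3, Sod1, Txn1, Gstm1 and Gstm2, at a background of 2.76% of genes called higher, and the median was 0.89. Per 10000 mRNA exon counts the 40 members took 82.9, 149, 53.1 and 66.4 counts in ethanol replicates 1 to 4, against 41.8 to 45.0 in controls. Without Gpx3 the values were 50.0, 72.5, 42.9 and 59.8 in the ethanol libraries and 34.0 to 38.0 in controls, so the groups stayed apart with Gpx3 left out.

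**Figure D2:**
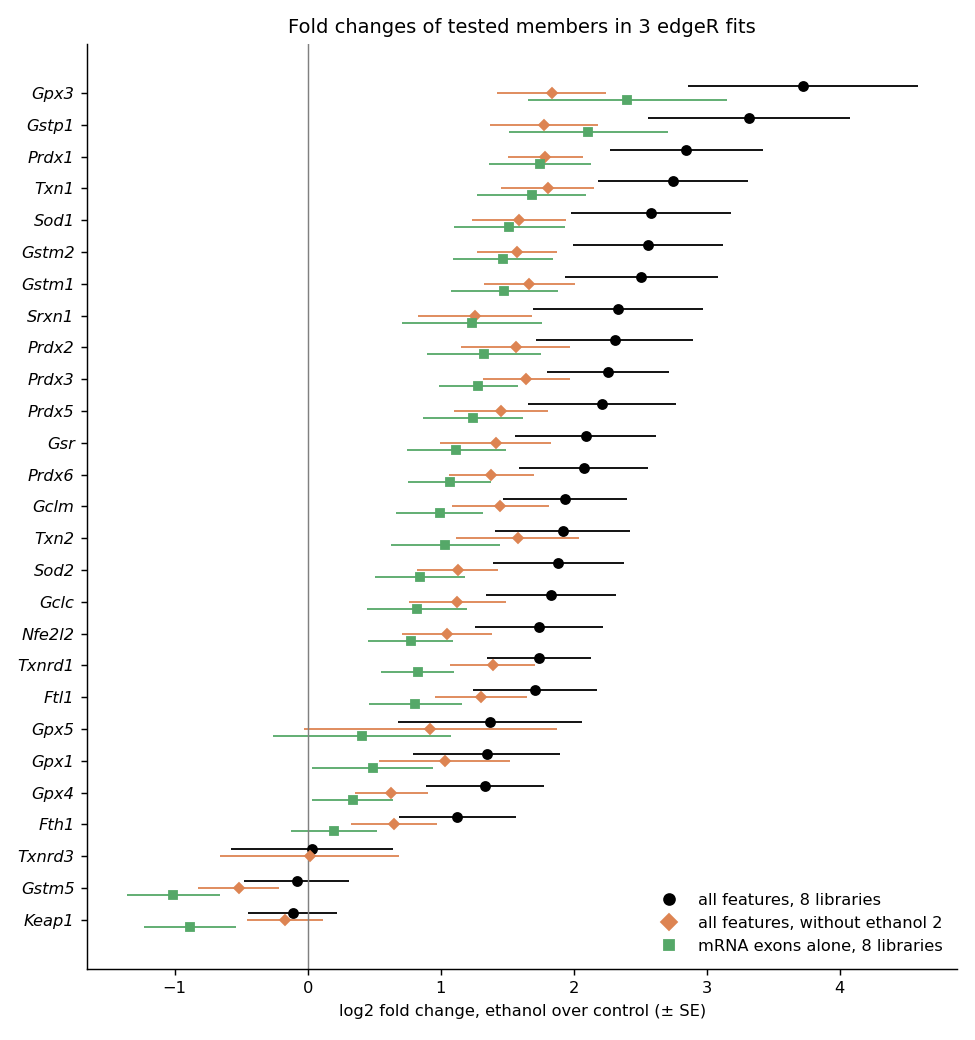
log2 fold change of ethanol over control (± SE) for each tested member in the fit of all features with 8 libraries (black circles), the same without ethanol replicate 2 (orange diamonds) and the fit of mRNA exons alone with 8 libraries (green squares). Gpx3 moves from 3.72 to 1.83 without ethanol replicate 2 and to 2.40 in the fit of genes alone, where Txnrd3 was under the count minimum and has no value.

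**Figure D3:**
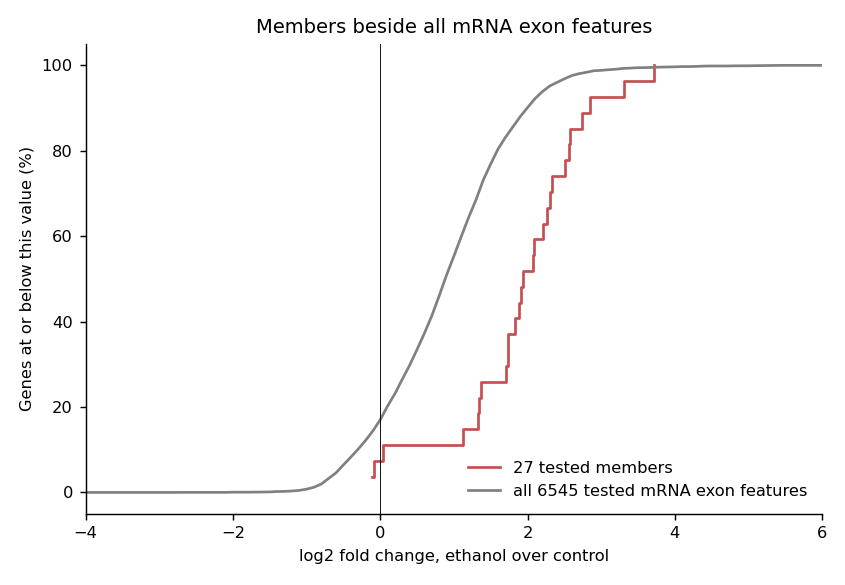
Cumulative share of genes (%) by log2 fold change of ethanol over control, for the 27 tested members (red steps) and all 6545 tested mRNA exon features (grey line). The members' median is 1.93 and that of all mRNA exon features 0.88.

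Markers of other cells moved in the same libraries. The summed CPM of the 40 members was 725, 3199, 485 and 665 in ethanol replicates 1 to 4, against 254 to 315 in controls. Summed epididymal epithelium markers (24 genes) stood at 3038, 15091, 1028 and 1495 CPM in ethanol replicates 1 to 4 and at 466 to 892 CPM in controls, and 8 of their 9 tested genes rose, with a median log2 fold change of 2.67. Without ethanol replicate 2, 7 of 9 were called and the median was 1.48; with mRNA exons alone in the fit it was 1.40, and DESeq2 called 5. Crisp1, a secreted protein of the epididymis that coats sperm, averaged 3478 ± 4159 CPM in ethanol and 488 ± 122 CPM in control sperm (SD, n = 4 each; log2 fold change 2.83 ± 0.71 SE, adjusted p = 0.0292), and its log2 fold change was 1.48 ± 0.42 (adjusted p = 0.0275) without ethanol replicate 2. Clu, the secreted chaperone clusterin, averaged 673 ± 951 CPM in ethanol and 106 ± 129 CPM in control sperm and was not called (2.67, adjusted p = 0.0925; 0.82 without ethanol replicate 2). Wfdc2 and Bsph1 of this list were at 0 in every control. The 15 spermatid and sperm markers summed to 271 to 752 CPM in ethanol libraries, lowest in replicate 2, and to 695 to 870 CPM in controls. None of these 15 was called by edgeR, but all 15 had a negative log2 fold change, with a median of -0.53. At an unadjusted p under 0.05 by edgeR 0 were higher and 2 lower, and DESeq2 called 0 higher and 2 lower. Without ethanol replicate 2 none was called and the median was -0.38. With mRNA exons alone in the fit the median was -1.21. Smcp, a protein of the sperm mitochondrial capsule, had a log2 fold change of -0.93 ± 0.41 (adjusted p = 0.126), and Odf1, an outer dense fibre protein of the tail, of -0.54 ± 0.43 (adjusted p = 0.384). The part of epididymal RNA in the members' rise was not tested. Called counts and medians of the marker lists cover tested genes alone. A marker over the count minimum only in its ethanol libraries had to be higher there.

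Of the other lists, blood and immune markers summed to 186 to 2717 CPM in ethanol and 96.1 to 133 CPM in control libraries. Cd52 alone held 394, 2685, 175 and 276 of these CPM in ethanol replicates 1 to 4, and 52.7 to 86.5 in controls. Of 6 tested genes 1 was higher and 2 lower, and the same numbers held without ethanol replicate 2. The median log2 fold change was -1.66, with 5 of the 6 negative, and -1.43 without ethanol replicate 2. At an unadjusted p under 0.05 by edgeR 1 was higher and 4 lower, and DESeq2 called 0 higher and 4 lower. The 1 higher gene was Cd52, also a major surface glycoprotein of epididymis and sperm, at 883 ± 1205 CPM in ethanol and 69.3 ± 17.1 CPM in control sperm (3.67 ± 0.79, adjusted p = 0.0287; 1.96 ± 0.38 without ethanol replicate 2). Cd74, the invariant chain of antigen-presenting cells, had 9.24 CPM in ethanol and 11.0 CPM in control sperm (log2 fold change -0.25, adjusted p = 0.664). Stromal and smooth muscle markers summed to 31.3 to 92.7 CPM in ethanol and 62.0 to 162 CPM in control libraries, with 0 of 8 tested genes called by edgeR (unadjusted p under 0.05: 0 higher and 1 lower; DESeq2: 0 higher and 1 lower; none called without ethanol replicate 2), Myh11 (smooth muscle myosin) at -0.98 and Dcn (decorin) at -0.01, or -0.77 without ethanol replicate 2. No clear-cell marker was tested, at summed 1.32 to 10.3 CPM in ethanol and 0.834 to 2.62 CPM in control libraries. Testis somatic markers, also with none tested, summed to 5.02 to 17.7 CPM in ethanol and 2.88 to 10.7 CPM in controls, and Hsd3b1 of this list was at 0 in every control.

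**Figure D4:**
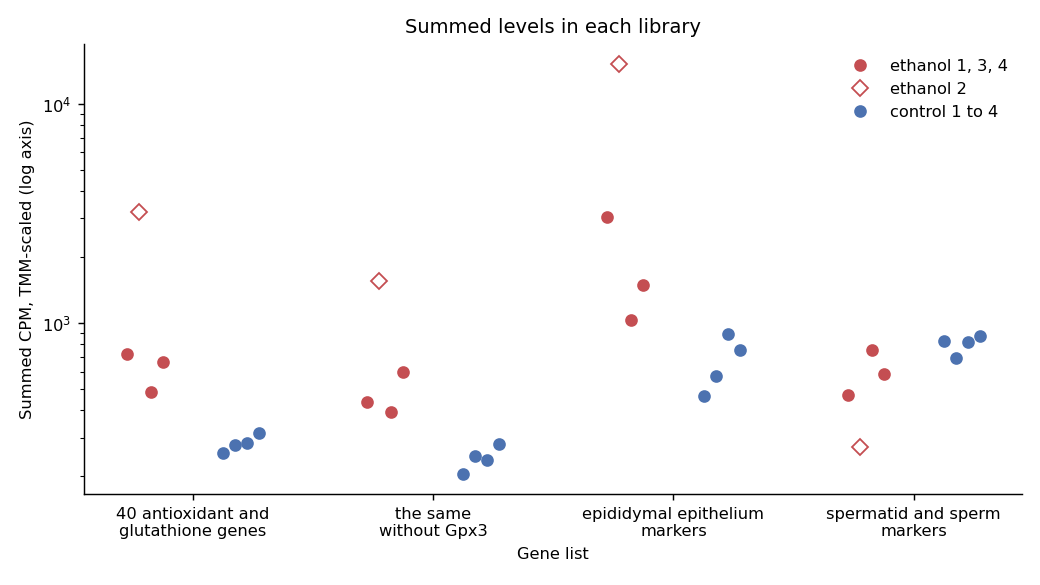
Summed TMM-scaled CPM (log axis) in each library, ethanol left of control, for the 40 members, the members without Gpx3, the epididymal epithelium markers and the spermatid and sperm markers; the open diamond is ethanol replicate 2. The first 3 sums are highest and the sperm marker sum, at 271 CPM, is lowest in that library.

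NRF2 is encoded by Nfe2l2, which had 8.81, 26.1, 6.79 and 8.13 CPM in ethanol replicates 1 to 4, against 2.88, 4.40, 2.25 and 5.29 CPM in controls 1 to 4. All ethanol values lay above all control values (log2 fold change 1.74 ± 0.48, adjusted p = 0.0333). Keap1, its inhibitor, had 16.7, 22.5, 27.7 and 23.3 CPM in ethanol and 26.2, 21.7, 21.2 and 28.6 CPM in control libraries. The groups overlapped, and the log2 fold change of -0.11 ± 0.33 was not called (adjusted p = 0.835). It changed sign with the scaling, to 0.18 when library totals replaced TMM factors, and was -0.89 ± 0.35 (adjusted p = 0.123) relative to other genes. Keap1 was also the member most affected by overlapping exon rows, since 1 transcript kept 53.6% of its counts; on that transcript alone the log2 fold change was 0.25. The 5 Keap1 rows shared by 3 or more transcripts held 7.64, 13.7, 6.41 and 8.30 CPM in ethanol and 4.97, 6.46, 4.74 and 6.68 CPM in control libraries. The 4 rows that belong to 1 transcript each held 9.11, 8.84, 21.3 and 15.0 CPM in ethanol and 21.2, 15.3, 16.5 and 22.0 CPM in control libraries. The shared rows were thus higher in 3 ethanol libraries than in any control, which the summed gene did not show; this split was made after the values were seen and was not tested. The NRF2 targets Hmox1 (heme oxygenase) and Nqo1 (a quinone reductase) were under the count minimum, with 1 to 7 and 0 to 25 counts in ethanol libraries and 1 to 10 and 0 to 2 in control libraries.

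Antioxidant response elements were looked for as TGACNNNGC on both strands in RefSeq promoters of GRCm38.p6, from 250 bases before to 50 after each gene's start. A promoter was found for 35 members, and 7 of these (20.0%) held the motif: Gclm, Gstm5, Nfe2l2, Prdx1, Sod1, Srxn1 and Txnrd1. It stood in 7 of the 24 tested members with a promoter (29.2%), against 18.0% of all tested genes with a promoter. The share was 35.3% in called members (6 of 17), 14.0% in all genes and 12.4% in all promoter windows. Elements outside this window were not looked for, and the shares were not tested. The matches shown here, with the motif in capitals and the rest in lower case, include promoters of called members and that of Gstm5, which was not called:
Prdx1: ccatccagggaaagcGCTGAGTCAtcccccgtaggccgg
Txnrd1: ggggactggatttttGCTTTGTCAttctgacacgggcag
Gclm: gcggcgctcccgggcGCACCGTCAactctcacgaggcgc
Sod1: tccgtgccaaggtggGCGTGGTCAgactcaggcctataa
Nfe2l2: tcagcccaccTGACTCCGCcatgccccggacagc
Gstm5: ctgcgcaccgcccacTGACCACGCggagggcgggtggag
Read 5′ to 3′ in the direction of transcription, the Prdx1 stretch is chr4:116685451-116685489, that of Txnrd1 chr10:82859099-82859137, that of Gclm chr3:122245408-122245446, that of Sod1 chr16:90220691-90220729 and that of Gstm5 chr3:107895797-107895835, all on the plus strand, and that of Nfe2l2 is chr2:75704880-75704913 on the minus strand. The first 4 matches lie on the strand opposite to the gene. A match describes these letters and is not a measured binding site, and the motif stood both in genes that rose and in Gstm5, which was not called.

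Among the glutathione peroxidases, Gpx3 had the largest difference of the 27 tested members. Gpx3, the secreted selenium-containing peroxidase found in plasma and epididymal fluid, had 288, 1642, 93.4 and 65.9 CPM in ethanol replicates 1 to 4, against 49.2, 30.0, 44.2 and 34.8 CPM in controls 1 to 4. The lowest ethanol library was above the highest control, but the ethanol libraries differed widely among themselves, and the log2 fold change of 3.72 ± 0.86 (adjusted p = 0.0287) was 1.83 ± 0.41 (adjusted p = 0.00786) without ethanol replicate 2. In ethanol replicates 3 and 4 alone, whose sample codes are of another style than those of replicates 1 and 2, it was 0.97 ± 0.34 (adjusted p = 0.0846), and 12 of 27 members were called there, at a background of 7.66% of mRNA exon features. Gpx4, the phospholipid hydroperoxide peroxidase that also forms part of the sperm midpiece, had 23.6, 82.3, 27.0 and 25.3 CPM in ethanol and 13.6, 13.2, 17.2 and 18.6 CPM in control libraries. The groups did not overlap, but the log2 fold change of 1.33 ± 0.45 missed the threshold (adjusted p = 0.0583) and was 0.34 ± 0.30 relative to other genes. Gpx1, the cytosolic peroxidase, averaged 6.30 ± 3.44 CPM in ethanol and 2.47 ± 1.91 CPM in control sperm (1.34 ± 0.55, adjusted p = 0.107). Gpx5, a peroxidase secreted by the epididymis, had 6.46, 17.1, 7.36 and 9.86 CPM in ethanol libraries and 4.19, 0.259, 10.5 and 0.556 CPM in control libraries (1.37 ± 0.69, adjusted p = 0.180). Its controls were split, with 1 and 2 counts in controls 2 and 4 and 16 and 42 counts in controls 1 and 3. Gpx6, Gpx7 and Gpx8 had at most 4 counts in any library.

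All peroxiredoxins tested were called higher. Prdx1, a cytosolic peroxiredoxin, had 34.7, 146, 22.4 and 29.9 CPM in ethanol and 7.07, 8.79, 6.99 and 9.46 CPM in control libraries. The controls lay close together and every ethanol library was above them (2.85 ± 0.57, adjusted p = 0.0287). Prdx1 kept a log2 fold change of 1.79 ± 0.28 without ethanol replicate 2 (adjusted p = 0.000907). Prdx3, the mitochondrial peroxiredoxin, had 11.5, 33.5, 8.86 and 14.2 CPM in ethanol and 2.88, 4.91, 3.49 and 2.78 CPM in control libraries (2.26 ± 0.46, adjusted p = 0.0287). Prdx2, also cytosolic, reached 6.98 to 39.1 CPM in ethanol and 1.31 to 6.72 CPM in control libraries, so the groups nearly touched (2.31 ± 0.59, adjusted p = 0.0294). Prdx5, which is found in mitochondria, peroxisomes and cytosol, reached 15.7 to 64.0 CPM in ethanol and 2.09 to 10.9 CPM in controls (2.21 ± 0.56, adjusted p = 0.0292). Prdx6, which has a single active-site cysteine and also acts on phospholipids, reached 12.4 to 56.0 CPM in ethanol and 4.45 to 8.79 CPM in controls (2.07 ± 0.49, adjusted p = 0.0287). Prdx4, the peroxiredoxin of the endoplasmic reticulum, was under the count minimum, with 4 to 8 counts in ethanol libraries and 1 to 4 in control libraries.

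Both intracellular superoxide dismutases rose. Sod1, the copper and zinc enzyme of the cytosol, had 18.5, 91.8, 16.2 and 24.7 CPM in ethanol and 2.88, 3.62, 9.24 and 9.46 CPM in control libraries (2.58 ± 0.60, adjusted p = 0.0287). Its 4 controls fell into a lower and a higher pair, both below the ethanol libraries. Sod2, the manganese enzyme of mitochondria, had 21.6, 65.4, 11.1 and 22.7 CPM in ethanol and 9.16, 7.24, 6.49 and 9.74 CPM in control libraries (1.88 ± 0.49, adjusted p = 0.0304). Ethanol replicate 3 was the nearest to the controls. Sod3, the extracellular enzyme, was under the count minimum, with 1 to 4 counts in ethanol and 1 to 8 in control libraries.

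In the thioredoxin system, Txn1, the cytosolic thioredoxin, had 14.4, 43.3, 6.60 and 8.47 CPM in ethanol and 3.14, 2.33, 2.25 and 3.06 CPM in control libraries (2.74 ± 0.56, adjusted p = 0.0287). Its mitochondrial counterpart Txn2 had 3.38, 9.89, 3.40 and 8.65 CPM in ethanol and 1.05, 1.03, 1.50 and 3.06 CPM in control libraries (1.92 ± 0.51, adjusted p = 0.0314), with ethanol replicates 2 and 4 well above the others. Txn2 was lost without ethanol replicate 4. Txnrd1, the cytosolic reductase that restores thioredoxin, had 10.3, 27.1, 11.5 and 20.4 CPM in ethanol and 4.97, 6.21, 4.74 and 4.73 CPM in control libraries, the smallest standard error among the called members (1.74 ± 0.39, adjusted p = 0.0287). Srxn1, the sulfiredoxin that repairs overoxidised peroxiredoxins, had 7.78, 26.1, 3.58 and 3.80 CPM in ethanol and 2.88, 1.55, 2.75 and 0.834 CPM in control libraries (2.33 ± 0.64, adjusted p = 0.0330). Ethanol replicates 3 and 4 were less than 1 CPM above the highest control. Txnrd3, the thioredoxin-glutathione reductase known from testis, had 2.20, 2.32, 3.96 and 2.42 CPM in ethanol and 0.262, 1.03, 6.99 and 2.23 CPM in control libraries (0.03 ± 0.61, adjusted p = 0.974). The controls spanned the ethanol libraries, and the sign changed under several alternatives. Txnrd2, the mitochondrial reductase, was under the minimum, with 1 to 14 counts in ethanol and 0 to 1 in control libraries.

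Glutathione is made in a pair of steps, by glutamate-cysteine ligase and then glutathione synthetase. Gclc, the catalytic subunit of the ligase, had 5.14, 19.8, 7.17 and 5.71 CPM in ethanol and 3.93, 2.33, 1.75 and 2.50 CPM in control libraries (1.83 ± 0.49, adjusted p = 0.0319). Gclm, its modifier subunit, had 8.08, 25.7, 7.17 and 16.1 CPM in ethanol and 3.40, 3.10, 2.50 and 5.84 CPM in control libraries (1.93 ± 0.46, adjusted p = 0.0287). Gsr, the reductase that returns oxidised glutathione to its reduced form, had 4.85, 16.6, 3.21 and 7.26 CPM in ethanol and 1.31, 2.07, 1.25 and 2.78 CPM in control libraries (2.09 ± 0.53, adjusted p = 0.0292). In all 3 genes the lowest ethanol library was above the highest control, by less than 2 CPM. Gss, the synthetase, was under the count minimum, with 3 to 24 counts in ethanol and 0 to 2 in control libraries.

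Glutathione transferases join glutathione to reactive compounds, and 3 of the 4 tested rose. Gstm1 had 38.5, 185, 34.7 and 66.4 CPM in ethanol and 7.33, 20.4, 10.2 and 18.9 CPM in control libraries (2.51 ± 0.57, adjusted p = 0.0287). Gstm2, a second mu-class enzyme, had 32.9, 175, 29.0 and 50.7 CPM in ethanol and 8.38, 14.7, 12.0 and 13.6 CPM in control libraries (2.56 ± 0.56, adjusted p = 0.0287). Gstp1, of the pi class, had 8.81, 53.0, 4.72 and 5.53 CPM in ethanol and 2.62, 1.55, 0.749 and 2.22 CPM in control libraries (3.31 ± 0.76, adjusted p = 0.0287), and 1.78 ± 0.41 without ethanol replicate 2 (adjusted p = 0.00859). Gstm5, a mu-class enzyme known from testis, had 34.4, 86.3, 45.3 and 38.4 CPM in ethanol and 60.7, 46.3, 51.4 and 57.9 CPM in control libraries. Ethanol replicates 1, 3 and 4 lay below every control and replicate 2 above every control, and the log2 fold change was -0.08 ± 0.39 (adjusted p = 0.905), 0.31 with library totals as the scaling and -0.52 ± 0.30 (adjusted p = 0.273) without ethanol replicate 2. Relative to other genes it was -1.01 ± 0.35 (adjusted p = 0.102), and -1.02 ± 0.32 (adjusted p = 0.0553) with ethanol replicate 2 also left out. Gsta4, Gstk1, Gsto1 and Gstt1 were under the count minimum, Gsta4 with 9 to 94 counts in ethanol and 2 to 9 counts in control libraries. Mu-class genes resemble each other, as do Gstp1 and Gstp2, so the counting could divide reads between them.

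Ferritin stores iron away from peroxide. Ftl1, the light chain, had 39.8, 106, 32.6 and 76.6 CPM in ethanol and 10.2, 25.6, 16.7 and 25.6 CPM in control libraries (1.71 ± 0.47, adjusted p = 0.0329). Ethanol replicate 3 came nearest to the controls, and the call was lost without ethanol replicate 4. Fth1, the heavy chain that oxidises iron, had 28.1, 75.8, 24.5 and 44.3 CPM in ethanol and 10.7, 22.5, 27.5 and 18.4 CPM in control libraries, which overlap (1.12 ± 0.44, adjusted p = 0.0947). Ferritin genes and Gpx4 have processed pseudogenes, so their counts are uncertain.

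Levels per kilobase of transcript set the members in another order than their differences. In control sperm Gstm5 had the highest level, at 57.2 ± 6.86 CPM per kilobase, then Gpx3 at 24.8 ± 5.48, Ftl1 at 20.2 ± 7.74 and Gpx4 at 14.2 ± 2.03 (SD, n = 4), of which Gpx3 and Ftl1 differed by less than their spread. In ethanol sperm Gpx3 led at 328 ± 472 CPM per kilobase, and Gstm2 (67.5 ± 65.0), Ftl1 (65.9 ± 35.4), Gstm1 (62.9 ± 54.7), Sod1 (59.0 ± 56.4) and Gstm5 (54.0 ± 25.3) followed within 1 SD of each other.

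The introns of the same genes gave a readout that the selection did not use. The summed intron CPM of the 40 members was 50.2, 44.8, 42.8 and 45.3 in ethanol replicates 1 to 4 and 41.9, 43.2, 46.9 and 46.5 in controls, so the groups overlapped and ethanol replicate 2 did not stand out. Only 4 of the 40 intron features had enough counts to test. Log2 fold changes were 1.01 for Gclc (adjusted p = 0.0690), -0.33 for Gpx4, -0.25 for Txnrd1 and -0.21 for Nfe2l2. The edgeR test called 0 of the 4 (1 higher and 0 lower at an unadjusted p under 0.05; DESeq2 called 1 higher), beside 0.271% of 5159 introns higher and 1.88% lower.

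Exon position was examined after the values were seen, with first and later exons as separate features. The first exons of Gpx4 had 16, 22, 30 and 22 counts in ethanol libraries and 15, 11, 11 and 27 counts in controls (log2 fold change -0.05 ± 0.44, adjusted p = 0.949). Its later exons had 145, 369, 113 and 124 counts in ethanol libraries and 37, 40, 58 and 40 counts in controls (1.67 ± 0.48, adjusted p = 0.0388, at a background of 24.2% of later exons called higher). Without ethanol replicate 2 the later exons were at 0.85 ± 0.28 (adjusted p = 0.0556). The first exons of Gpx4 thus overlapped between groups and its later exons did not, but the difference between first and later exons was not tested. In Gpx3 the values were 2.86 ± 0.82 for the first exon (adjusted p = 0.0380) and 3.98 ± 0.89 for later exons (adjusted p = 0.0306). Without ethanol replicate 2 they were 0.87 ± 0.33 for the first exon (adjusted p = 0.0950), no longer called, and 2.06 ± 0.43 for later exons (adjusted p = 0.00622). In Gstm5 they were -0.47 ± 0.34 and -0.01 ± 0.40, and -0.50 ± 0.35 and -0.51 ± 0.30 without ethanol replicate 2. Over the 473 genes with both parts tested, the first exon had the lower log2 fold change in 64.9%, and among 8 members in 62.5%. Without ethanol replicate 2 this held in 58.8% of 529 genes and in 33.3% of 9 members. The order switched in Prdx5 (first exon 1.47 ± 0.47, later exons 1.46 ± 0.36) and in Gstm5, by far less than the SE. Gclm entered the set, so the members' 2 shares cover different genes and near ties.

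**Figure D5:**
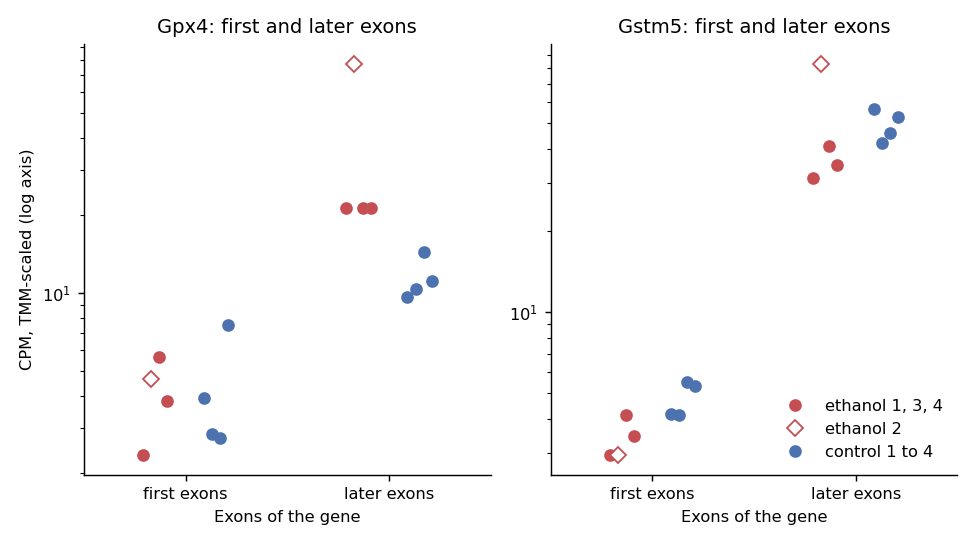
TMM-scaled CPM (log axis) of first and later exons of Gpx4 (left) and Gstm5 (right) in each library, ethanol left of control; the open diamond is ethanol replicate 2. The later exons of Gpx4 are the 1 set in which the groups do not overlap.

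Genes around the members were listed by pathway, and their counts stand beside the 23.8% of mRNA exon features called higher with 8 libraries and the 13.9% without ethanol replicate 2. As with the members, a list gene that passed the count minimum through its ethanol libraries alone had to be higher there. The counts and medians therefore describe the tested genes and not the whole lists. Of 8 tested genes of glutathione turnover 2 rose: Lap3, a leucine aminopeptidase that cleaves cysteinylglycine (1.87, adjusted p = 0.0300), and Slc7a11, the cystine transporter (1.78, adjusted p = 0.0404). That share of 25.0% is near the background, and without ethanol replicate 2 only Lap3 was called (1.29, adjusted p = 0.0268), with Slc7a11 at 0.84 (adjusted p = 0.111). Among other glutathione transferases 6 of 7 rose, with a median log2 fold change of 2.26, and 5 of 8 without ethanol replicate 2, with a median of 1.49. Gstm7 had 16.6, 154, 7.36 and 4.15 CPM in ethanol and 2.36, 1.55, 1.25 and 1.39 CPM in control libraries (4.78 ± 1.11, adjusted p = 0.0287), with replicate 2 far above the rest and a log2 fold change of 2.44 without it. Gstp2 (3.46) and Gstt3 (2.48) were also called, each at an adjusted p of 0.0287. Of 10 other thiol and peroxide enzymes 5 rose, among them Txndc17, a small thioredoxin-like protein (2.25), Park7, a redox-sensitive chaperone (2.46), and Msrb1, a methionine sulfoxide reductase (2.18). The median of these 10 was 1.63, and without ethanol replicate 2 it was 0.93, with 4 called.

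NADPH supply had 6 of 8 tested genes called higher, with a median of 1.65, and 5 of 8 without ethanol replicate 2, with a median of 1.23. Taldo1, the transaldolase of the pentose phosphate pathway, had 13.1, 49.0, 4.72 and 11.1 CPM in ethanol and 1.31, 1.81, 2.75 and 2.23 CPM in control libraries (3.24 ± 0.64, adjusted p = 0.0287). G6pdx, which makes the first NADPH of that pathway, had 15.0, 41.5, 7.17 and 16.4 CPM in ethanol and 2.09, 5.69, 2.50 and 3.62 CPM in control libraries (2.51 ± 0.53, adjusted p = 0.0287). Nadk, the NAD kinase, was at 1.60 (adjusted p = 0.0292). Taldo1 and G6pdx were above all controls in every ethanol library, as were 28.7% of tested mRNA exon features. Pgd (1.69, adjusted p = 0.0405) and Tkt (2.02, adjusted p = 0.0302) of the same pathway, named here after their values were seen, were also called higher. Both overlapped between groups. The lowest ethanol library had 4.70 CPM for Pgd, against 5.17 CPM in the highest control, and 10.6 CPM for Tkt, against 10.8 CPM in the highest control.

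Of 12 NRF2 partners and other targets 4 rose, with a median of 1.03: named by the smallest p, Slc48a1, a heme transporter (1.65), Cbr1, a carbonyl reductase (1.96), and Nfe2l1, a factor related to NRF2 (1.49). The median of 1.03 is near the 0.88 of all mRNA exon features. With mRNA exons alone in the fit it was 0.13, against 0.02 over all genes. Without ethanol replicate 2, 3 of 12 were called and the median was 0.66. Nfe2l1 was then at 0.90 (edgeR adjusted p = 0.0585). Of 10 iron handling genes 2 rose, with a median of 0.89: Pcbp1, an RNA-binding protein that also delivers iron to ferritin (1.97), and Aco1, the iron-responsive aconitase (1.65). That share of 20.0% is below the 23.8% of mRNA exon features, and the median is close to their 0.88. It was 0.49 without ethanol replicate 2, with both genes still called, and -0.05 with mRNA exons alone in the fit. Of 4 tested genes of selenoprotein synthesis 1 rose, Sephs1 (1.36, adjusted p = 0.0434), and the median was 0.52, below the 0.88 of all mRNA exon features. Sephs1 was not called without ethanol replicate 2 (1.06, adjusted p = 0.0853), which left the list with 0 of 4 called. No gene of any of these pathway lists was called lower by edgeR, at a background of 0.153% of mRNA exon features called lower, with 1 lower at an unadjusted p under 0.05, in glutathione turnover, and 0 lower by DESeq2.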

How the data were processed

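Per the file headers, the authors deposited raw counts, 1 column for each of 8 sperm libraries and 1 row per exon, intron or other annotated feature. Whether these are reads or molecules, and the aligner, counting rule, strand setting and genome build, are not given in the sources used here. Exon and intron rows were summed per symbol and other rows per name and type, giving 45097 features. Overlapping alternative exons hold the same counts, so some genes are counted in part more than once.

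edgeR 4.0.16 in R 4.3.3 tested ethanol against control (TMM scaling, filterByExpr at 10 counts, quasi-likelihood fit made robust to outlying features, Benjamini-Hochberg adjustment, threshold 0.05). On simulated data the pipeline recovered 2% of 2-fold changes and 67% of 4-fold changes, with 5 false calls. Most simulated 2-fold changes were thus missed. DESeq2 1.42.0, limma 3.58.1 (voom), other scalings and filters, genes alone, a replicate block and libraries left out were alternatives. Values are TMM-scaled CPM, given as mean ± SD (n = 4), with each log2 fold change ± SE. No 2 libraries of a group agreed within sampling noise. Transcript lengths and exon order came from GENCODE M21 by RefSeq accession, and promoters from RefSeq (GRCm38.p6). Python 3.11.15, pandas 2.3.3, numpy 2.4.6 and matplotlib 3.10.9 were used.

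Members and lists were chosen with earlier results of these data known. The text names every called member, the 6 tested members with the highest mean CPM, in each pathway list up to 3 called genes with the smallest p, and in each marker list the 2 most abundant genes. Other members are named to account for all 41.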

Additional observations from a re-analysis of the deposited data

Results flagged for a closer look

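In groups of 4, a library was marked where its gap to the nearest other library was larger than Dixon's critical share of the group's range. For normal values, chance gives this in about 1 in 20 groups. The genes share the same libraries, so the marks are not independent and cannot be weighed against that rate. Ethanol replicate 2 was the high library in 10 of 12 marked cases. They were Gpx3 at 1642 CPM (nearest other ethanol library 288), Gpx4 at 82.3 CPM (27.0), Prdx1 at 146 CPM (34.7) and Prdx5 at 64.0 CPM (21.4). Sod1 stood at 91.8 CPM (24.7), Gclc at 19.8 CPM (7.17), Gstm2 at 175 CPM (50.7), Gstp1 at 53.0 CPM (8.81) and Nfe2l2 at 26.1 CPM (8.81). The summed level of the 40 members stood at 3199 CPM (725). The other 2 cases were Txnrd3 in ethanol replicate 3, at 3.96 CPM against at most 2.42 CPM in the other ethanol libraries, and Txnrd1 in control replicate 2, at 6.21 CPM against at most 4.97 CPM in the other controls.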

How the results depend on the processing

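The 20 called members kept a positive log2 fold change in all 419 values with an adjusted p over 21 alternatives, of which 253 stayed called and 166 did not (DESeq2 gave Gstp1 no adjusted p). The count of members called was 0 with limma-voom (adjusted p 0.0568 to 0.0945). At an unadjusted p under 0.05 limma-voom had 24 members higher, beside 2773 of 6545 mRNA exon features. The count was 0 with mRNA exons alone in the fit, with or without 1 transcript per gene. It was 6 with mRNA exons alone and ethanol replicate 2 also left out, and 12 with ethanol replicates 3 and 4 only. It ran from 0 to 22 over libraries left out in turn, 0 without any 1 control and 18 to 22 without an ethanol library. Without an ethanol library the background was 13.6% to 36.5% of mRNA exon features called higher. The members' median ran from 1.39 to 2.14 over libraries left out. Fits of mRNA exons alone gave medians of 1.07, 0.89 (ethanol replicate 2 also left out) and 1.06 (1 transcript per gene, a choice made after seeing the data, as was leaving out ethanol replicate 2 in that fit and the exon split). Features called in all numbered 1842, and 1200 with DESeq2 size factors, 3144 with DESeq2, 8 with limma-voom, 3451 with no count filter, 0 with mRNA exons alone (0 with 1 transcript per gene, and 338 with ethanol replicate 2 also left out), 3319 with ethanol replicates 1 and 2 only, 818 with replicates 3 and 4 only, and 3 to 3569 with a library left out. With no count filter 28 of 40 members were called, at a background of 15.1% of mRNA exon features called higher. Library totals moved the median of all features from -0.01 to 0.25. The replicate block called 22 members and 3294 features, at a background of 37.1% of mRNA exon features called higher. Same-numbered libraries deviated together at r = 0.357, 0.215, -0.137 and -0.0243. Whether the numbers pair the samples is not given in the labels, and these 4 values cannot decide it. Signs turned for 3 members that were never called: Gstm5 to 0.31 and Keap1 to 0.18 with library totals; Keap1 to 0.039 with ethanol replicates 3 and 4 only and 0.25 with 1 transcript per gene; Txnrd3 to -0.00064 with DESeq2 size factors, -0.0061 with a mean of 5 counts and -0.38 with ethanol replicates 1 and 2 only. With a library left out, Gstm5 ran from -0.52 (without ethanol replicate 2) to 0.072 (without ethanol replicate 1), Keap1 was 0.012 without ethanol replicate 1, and Txnrd3 ran from -0.46 to 1.12 (without control replicate 3), with -0.32 without ethanol replicate 3 and -0.46, -0.34 and -0.15 without controls 1, 2 and 4. The cause was not tested. Depth left 13 members untested.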
